A study of Mus musculus with 6 samples.

Results

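The S100 genes of chromosome 3 encode small calcium-binding proteins, and 10 of them were followed here in mouse submandibular salivary gland organoids (mSGOs) on day 5 and day 7 of culture. They are S100a1, S100a3, S100a4, S100a6, S100a8, S100a9, S100a10, S100a11, S100a14 and S100a16, 10 of the 47643 gene IDs in the count files. The 10 genes were chosen by their read counts at day 5 against day 7, the same contrast that is described for them below, so their differences between the days are given as a description with no p-value.

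mSGOs are multicellular structures that grow in Matrigel from dissociated cells of the adult gland. Both groups came from untreated, non-irradiated C57BL/6 mice aged 8-12 weeks, and both were kept in WRY medium, with Wnt3a- and R-spondin1-conditioned medium, EGF, FGF2, N2, insulin, dexamethasone and Y27632. The 5-day group and the 7-day group each held 3 libraries, 1 from each of mouse 1, mouse 2 and mouse 3, so a mouse gave a library to both days. The cells had been passaged once, which limits the organoids as a model to what grows from single cells of that culture.

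An S100 protein carries a pair of EF-hand loops and usually works as a dimer: bound calcium opens a surface that grips target proteins inside the cell. Several S100 proteins are also secreted. S100a8 and S100a9 together form calprotectin, which binds zinc and manganese and thereby starves microbes, and which activates the receptors Tlr4 and Ager (RAGE). In stratified epithelia, many S100 genes lie in the epidermal differentiation complex, beside genes for structural proteins of the cornified cell.

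Promoter windows of RefSeq (table of build GRCm38.p6, 250 bases before to 50 after the start) were found for 8 of the 10 genes, 12 windows in all, and S100a10 and S100a14 had no entry. The windows of S100a8 and S100a9 are shown because these genes form 1 protein complex and lie side by side, and that of S100a11 because it held AP-1 motifs. Each window matched GRCm39 at 1 place on chromosome 3, the coordinates given here. S100a8 is on the plus strand at chr3:90576128-90576427, S100a9 on the minus strand at chr3:90602979-90603278 and S100a11 on the plus strand at chr3:93427553-93427852. Capitals mark the TATA box (TATAAA), the AP-1 motif (TGANTCA) and the C/EBP motif (TTNNGNAA) on either strand.
S100a8: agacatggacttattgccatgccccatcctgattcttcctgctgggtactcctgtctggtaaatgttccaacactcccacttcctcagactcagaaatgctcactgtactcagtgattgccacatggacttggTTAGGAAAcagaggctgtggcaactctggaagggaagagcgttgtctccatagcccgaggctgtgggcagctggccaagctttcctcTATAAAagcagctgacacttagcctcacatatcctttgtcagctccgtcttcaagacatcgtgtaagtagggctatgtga
S100a9: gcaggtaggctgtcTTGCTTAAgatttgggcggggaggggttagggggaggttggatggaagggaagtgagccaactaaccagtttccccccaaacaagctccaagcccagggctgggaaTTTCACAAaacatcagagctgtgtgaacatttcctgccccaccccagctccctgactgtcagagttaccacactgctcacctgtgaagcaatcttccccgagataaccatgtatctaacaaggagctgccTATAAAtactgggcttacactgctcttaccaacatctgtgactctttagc
S100a11: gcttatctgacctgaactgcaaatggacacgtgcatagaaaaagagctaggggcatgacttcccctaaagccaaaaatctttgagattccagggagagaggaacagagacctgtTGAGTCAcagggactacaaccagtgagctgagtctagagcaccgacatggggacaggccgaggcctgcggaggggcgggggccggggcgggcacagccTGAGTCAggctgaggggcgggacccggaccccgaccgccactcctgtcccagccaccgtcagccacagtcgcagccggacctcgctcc

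The S100a8 window held a TATA box at -30 and a C/EBP motif at -117 from the RefSeq start. The S100a9 window held C/EBP motifs at -236 and -130, and its TATA box began at the RefSeq start itself. A TATA box was in 4 of the 12 windows, 1 each of S100a3, S100a4, S100a8 and S100a9, and in 13.6% of the 32851 windows of the table. The C/EBP motif was in 4 of the 12 windows, those of S100a8 and S100a9 and 2 of S100a3, beside 40.7% of all windows. The AP-1 motif stood at -136 and at -38 in S100a11 and in 1 window of S100a16, so in 2 of the 12 windows, beside 7.81% of all windows. The E-box CANNTG was in 10 of the 12 windows (72.3% of all windows), the GC box GGGCGG in 4 (35.7%), the hypoxia response core ACGTG in 2 (19.6%) and the glucocorticoid receptor motif TGTTCT in 2 (19.0%). ACGTG overlaps the E-box where the letters are CACGTG. These matches are descriptions of letters and not of bound sites. The annotated 5′ ends of S100a8 and S100a11 in GENCODE lie 9260 and 13421 bases from the RefSeq starts, so the windows of these genes belong to a start inside the annotated gene.

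The libraries held 1918198 to 2837397 gene counts. The reads came from transcript 3′ ends, so the count of a gene depends little on transcript length. Levels of different genes can thus roughly be set side by side as CPM (counts in a library scaled to 1e+06). A count of 0 allows a level of up to 3 counts, 1.04 to 1.51 CPM in these libraries, and this covers counting error only. The 7-day libraries varied more than the 5-day libraries, with a biological coefficient of variation over all genes of 0.290 against 0.0900. Epithelial markers were high in both groups (Krt14 4114 to 9222 CPM). In bulk RNA, fewer cells of a type and less RNA per cell cannot be told apart.

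The 10 genes together held 0.889%, 0.829% and 0.975% of gene counts at day 5 and 0.980%, 0.943% and 1.04% at day 7 in mouse 1, mouse 2 and mouse 3. S100a6 alone made up 69.9% to 72.3% of these counts at day 5 and 66.4% to 82.5% at day 7. At day 5, the order of mean levels was S100a6, S100a11, S100a14, S100a10, S100a16, S100a9, S100a4, S100a8, S100a1 and S100a3. Only S100a9 and S100a4 overlapped among neighbours in that order. At day 7, S100a8 stood above S100a9 and S100a4, and the other 7 genes held their places. The 7-day ranges overlapped for S100a11 and S100a14, S100a14 and S100a10, S100a16 and S100a8, S100a8 and S100a9, S100a9 and S100a4, and S100a4 and S100a1.

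**Figure D1:**
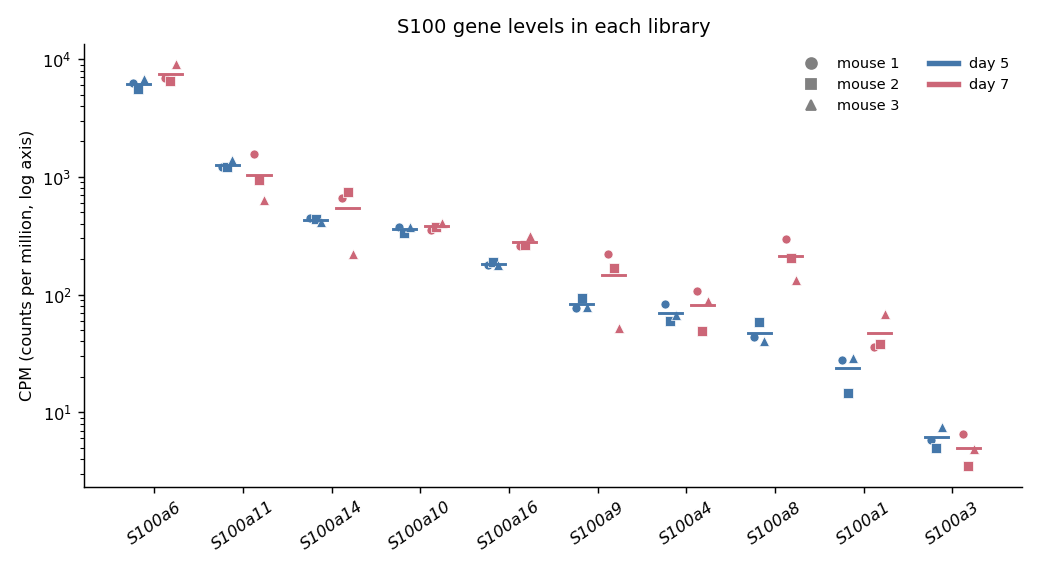
Level of each of the 10 S100 genes in CPM on a log axis, for the 3 libraries of day 5 (blue) and the 3 of day 7 (red). Symbols mark the mouse and bars the mean of a day. S100a6 is the highest gene in each library, and S100a8 moves from 40.7 to 58.2 CPM at day 5 to 133 to 294 CPM at day 7.

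S100a8 was the member that differed most between the days. S100a8 (ENSMUSG00000056054) measured 43.3, 58.2 and 40.7 CPM at day 5 and 294, 206 and 133 CPM at day 7 in mouse 1, mouse 2 and mouse 3. Every 7-day library was above every 5-day library, and mouse 1 had the largest rise. The fitted difference was 2.16 ± 0.26 on the log2 scale (SE, n = 3 per day), a 4.47-fold higher level, and it kept between 1.85 and 2.41 when any 1 library was left out. Among all genes, its rank by mean level moved from 3495 to 705.

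S100a9 (ENSMUSG00000056071), the other subunit of calprotectin, measured 77.5, 92.9 and 79.3 CPM at day 5 and 221, 168 and 51.9 CPM at day 7. The 7-day libraries of mouse 1 and mouse 2 were above all 5-day libraries, and that of mouse 3 was below them. The fitted difference was 0.82 ± 0.33 and did not pass the threshold. Without the 7-day library of mouse 3 it was 1.22 and passed, and it also passed, at 0.82, without a filter on low counts.

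The balance between the subunits is another view of the same counts and follows from the differences given above, so it is no separate result. The intervals below cover counting error only. S100a8 made up 35.8% (95% exact binomial interval 30.3% to 41.6%), 38.5% (33.0% to 44.3%) and 33.9% (28.9% to 39.3%) of the counts of both genes at day 5. At day 7 its share was 57.2% (54.5% to 59.8%), 55.2% (52.1% to 58.2%) and 72.0% (67.1% to 76.4%). S100a9 was thus the more abundant transcript in each 5-day library and S100a8 in each 7-day library, with no overlap between the days. Mouse 3 had the highest share at day 7, at 2.57 S100a8 counts per S100a9 count, and the lowest levels of both genes on that day.

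**Figure D2:**
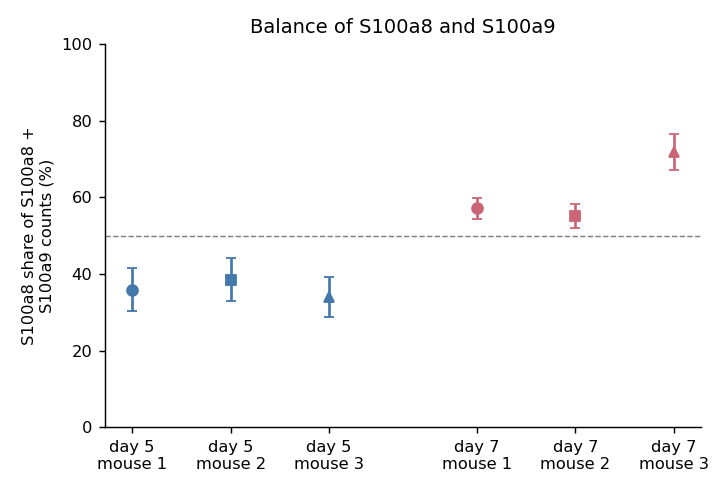
Share of S100a8 in the summed counts of S100a8 and S100a9, in percent, for each library. Bars are 95% exact binomial intervals, which cover counting error only, and the dashed line marks equal counts. The 5-day libraries lie between 33.9% and 38.5% and the 7-day libraries between 55.2% and 72.0%.

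Neutrophils are the best-known source of S100a8 and S100a9, and 9 of 12 neutrophil markers had no read in any library, among them Mpo, Elane, Ngp, Camp and Csf3r. The sum of the 12 was 0.412 to 4.68 CPM at day 5 and 13.2 to 13.8 CPM at day 7, most of it Cxcr2 and Ltf. Cxcr2 measured 0.412, 2.51 and 2.16 CPM at day 5 and 13.04, 6.94 and 4.90 CPM at day 7. Ltf measured 0, 0.502 and 2.52 CPM at day 5 and 0.384, 6.25 and 8.32 CPM at day 7. At day 7, the libraries stood in the order of S100a8 for Cxcr2 and in the reverse order for Ltf. Ly6g, a defining neutrophil gene, had 1 read in 1 library. Of 12 macrophage markers, 9 had no read, and their sum was 2.16 to 2.89 CPM at day 5 and 3.45 to 6.85 CPM at day 7. Cd68 measured 1.65, 1.00 and 0.360 CPM at day 5 and 3.07, 5.90 and 6.85 CPM at day 7, and Cx3cr1 1.24, 1.51 and 1.80 CPM at day 5 and 0 at day 7. The part of such cells in the result was not tested beyond these values.

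S100a6 (ENSMUSG00000001025), calcyclin, which is typical of proliferating cells, was the most abundant member. It measured 6321, 5580 and 6732 CPM at day 5 and 6912, 6487 and 9083 CPM at day 7. It was higher at day 7 within each mouse, but the days overlapped. The fitted difference was 0.27 ± 0.20, and the rank of S100a6 among all genes went from 9 to 4.

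S100a11 (ENSMUSG00000027907), calgizzarin, binds annexin A1 and is abundant in keratinocytes. It measured 1213, 1211 and 1390 CPM at day 5 and 1560, 944 and 637 CPM at day 7. The 7-day values lay on both sides of the 5-day values, above them in mouse 1 and below in mouse 2 and mouse 3. The fitted difference was -0.28 ± 0.25, and without the 7-day library of mouse 1 it was -0.68 and past the threshold.

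S100a10 (ENSMUSG00000041959) has lost calcium binding and sits with annexin A2 in a complex at the plasma membrane. Its levels were 372, 335 and 378 CPM at day 5 and 354, 378 and 408 CPM at day 7. At day 7 it varied least of the members, with a coefficient of variation of 7.20%, and the fitted difference was 0.07 ± 0.18. Its sign turned to -0.02 when only library totals were used for scaling.

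S100a14 (ENSMUSG00000042306) and S100a16 (ENSMUSG00000074457) are expressed in epithelia. S100a14 measured 448, 436 and 413 CPM at day 5 and 656, 751 and 223 CPM at day 7. As for S100a9, mouse 1 and mouse 2 were above the 5-day range and mouse 3 was below it, and the difference was 0.33 ± 0.30, or 0.70 and past the threshold without the 7-day library of mouse 3. S100a16 measured 179, 189 and 180 CPM at day 5 and 257, 263 and 317 CPM at day 7. Each 7-day library was above each 5-day library, and the difference of 0.61 ± 0.18 (1.52-fold) lay just past the threshold of 0.6. It passed in 6 of 15 alternatives. It was 0.51 with library totals alone and 0.603 with the mouse as a replicate block, and neither passed. With the replicate block the size was over 0.6, and the adjusted p was not under 0.05.

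S100a1 (ENSMUSG00000044080), best known from heart and skeletal muscle, where it acts on calcium release and uptake, was low here. It measured 27.6, 14.6 and 28.8 CPM at day 5 and 35.7, 38.2 and 68.5 CPM at day 7. The days did not overlap, with 28.8 CPM the highest value at day 5 and 35.7 CPM the lowest at day 7, and the difference was 0.98 ± 0.30 (1.97-fold). It stayed past the threshold when the 7-day library of mouse 1 was left out, and not when any other library was left out, with library totals only (0.88) or with filterByExpr (0.98), so it passed in 8 of 15 alternatives. Its exons overlap those of S100a13 on the opposite strand over 2447 bases, and since the strand setting is not given in the sources used here, reads of the 2 genes cannot be told apart there. S100a13 had 258 counts in all libraries together, beside 176 counts of S100a1 at day 5 and 343 at day 7.

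S100a4 (ENSMUSG00000001020), known from mesenchymal cells, binds the heavy chain of non-muscle myosin. Its levels were 82.9, 60.3 and 67.4 CPM at day 5 and 107, 49.3 and 87.6 CPM at day 7. The days overlapped and mouse 2 went the other way from mouse 1 and mouse 3, with a fitted difference of 0.21 ± 0.25, which became -0.05 without the 7-day library of mouse 1. The 12 fibroblast markers summed to 2.88 to 4.95 CPM at day 5 and 2.94 to 4.22 CPM at day 7, and Col1a2, Col3a1, Lum and Dpt had no read. S100a3 (ENSMUSG00000001021), a gene of the hair cuticle, had only 10 to 21 counts in a library, with a difference of -0.32 ± 0.40 that turned to 0.09 in counts thinned to the smallest library, and part of its exons (153 bases) lies over S100a2 on the same strand.

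**Figure D3:**
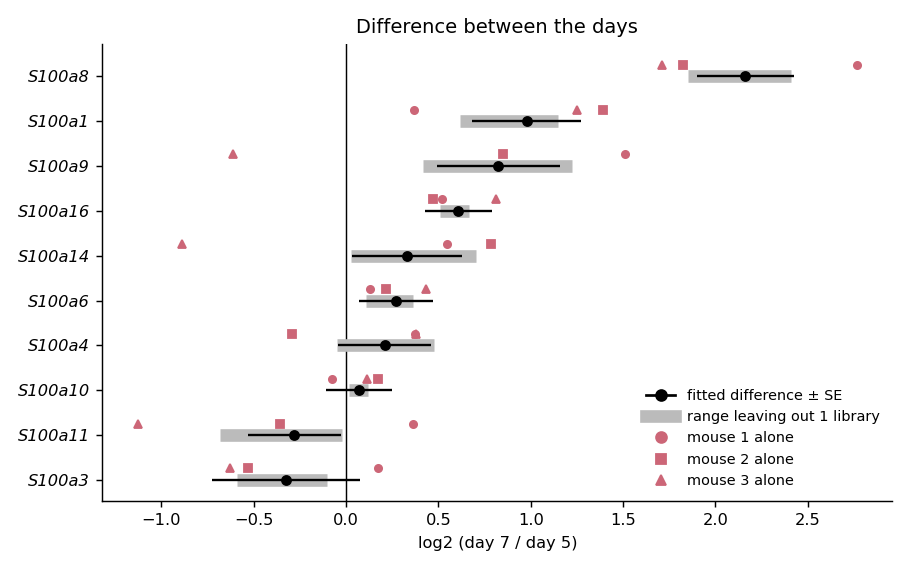
Difference between day 7 and day 5 for each of the 10 genes on the log2 scale. Black points are the fitted difference with its SE, grey bars the range when 1 library is left out, and red symbols the ratio within each mouse. For S100a9, S100a14 and S100a11 the ratio of mouse 3 is negative, at -0.61, -0.89 and -1.12.

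Of the 10 members, 3 (S100a8, S100a1 and S100a16) were past the threshold of an adjusted p under 0.05 and a log2 difference over 0.6, all higher at day 7, against 12% of the 15792 genes tested in either direction and 7.22% higher at day 7. The same 3 genes were those whose days did not overlap, beside 30.9% of all genes. The median difference of the 10 was 0.30, and that of all genes -0.01. Nothing is read from these counts, because the contrast chose the members. With 1 library left out, the number past the threshold ranged from 1 to 4, and S100a8 was past it each time.

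On GRCm39, 8 of the 10 genes formed a run of 184732 bases at chr3:90418340-90603071, from S100a1 to S100a9. S100a11 and S100a10 formed a shorter run at chr3:93414382-93474510, a further 2811310 bases along. S100a8 and S100a9 lie 21802 bases apart and on opposite strands. Along the first run, S100a8 with 2.16 lay next to S100a9 with 0.82, while S100a3, S100a4 and S100a6 in the middle were between -0.32 and 0.27. S100a7a, a psoriasin-like gene between S100a6 and S100a8 that was not among the 10, had 2, 4 and 3 counts at day 5 and 52, 66 and 21 counts at day 7, a difference of 3.78. Of the 4 neighbouring genes in the fit inside the runs, S100a7a alone was past the threshold (25% of so few genes, beside 12% of all genes), and S100a2, S100a5 and Gm19739 were not. With the mouse as a replicate block, 2 of the 4 were past it, S100a7a and S100a2.

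**Figure D4:**
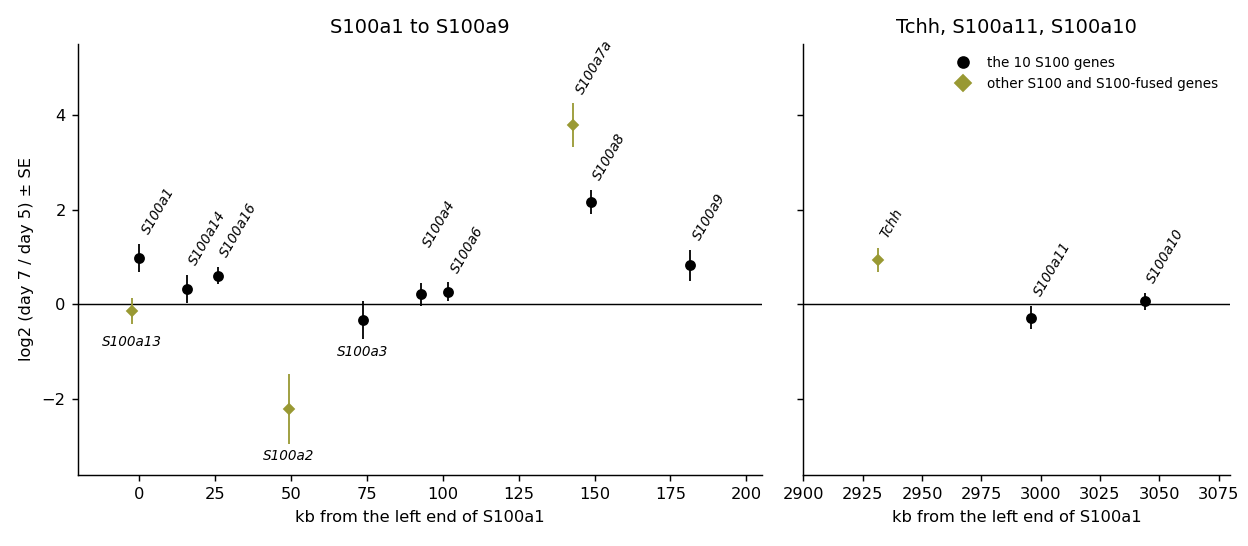
Difference between day 7 and day 5 (log2, ± SE) against the position of each gene, in kb from the left end of S100a1. Circles are the 10 S100 genes and diamonds other S100 and S100-fused genes with more than 3 counts on each day. S100a7a and S100a8 are the highest points shown, next to each other on the chromosome. Rptn (6.86) and Flg (3.49), each with 1 count at day 5, are left out.

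The other S100 genes were low. S100a13 had 41, 37 and 53 counts at day 5 and 38, 61 and 28 at day 7. S100a2 had 12, 5 and 6 counts and then 2, 3 and 0. S100a5, S100b, S100g and S100z had at most 3 counts in a library. Among the S100-fused genes, whose long proteins begin with an S100 domain and build the cornified cell, Rptn had 0, 0 and 1 counts at day 5 and 41, 100 and 30 at day 7. Tchh had 66, 45 and 63 counts and then 88, 182 and 86. Flg had 0, 1 and 0 counts and then 5, 8 and 3, Hrnr had 7 counts in the 7-day library of mouse 2 and none elsewhere, and Crnn had at most 1 count in a library. S100a7a, Rptn, Tchh and Flg thus had more counts in each 7-day library than in any 5-day library, and S100a2 had fewer. Among all genes tested, the days did not overlap in CPM for 30.9%, in either direction. The other S100 and S100-fused genes were looked up with the day values of the 10 members known. No p-value is therefore given for them, and that S100a7a is past the threshold is a description.

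The gene lists here and below were chosen with earlier results of these data known. Their adjusted p-values come from the fit over all genes and are no test of a list. Of 38 genes for listed binding partners of S100 proteins, inside or outside the cell, 30 were tested, 1 was higher, 1 was lower and 28 did not pass. That is 6.67% past the threshold, beside 12% of all genes tested, and the median difference was -0.15 beside -0.01. Cacybp, the calcyclin-binding protein that S100a6 grips, fell from 260, 267 and 236 CPM at day 5 to 147, 108 and 116 CPM at day 7, with no overlap (log2 difference -1.04 ± 0.19, adjusted p = 0.00144 by the quasi-likelihood test of edgeR). The other partner, Plat, a plasminogen activator, had 1, 0 and 2 counts at day 5 and 16, 19 and 2 counts at day 7 (edgeR adjusted p = 0.0106). It was thus higher in mouse 1 and mouse 2, while mouse 3 had 2 counts on both days, and the call was lost in 4 alternatives.

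Anxa2, the partner of S100a10, measured 992, 1295 and 1319 CPM at day 5 and 1538, 1342 and 2009 CPM at day 7. The days did not overlap, but the difference of 0.44 ± 0.20 did not pass (edgeR adjusted p = 0.181). Anxa1, the partner of S100a11, measured 821, 556 and 703 CPM at day 5 and 1636, 999 and 252 CPM at day 7, so mouse 3 was again below the 5-day range. Its difference was 0.47 ± 0.39 (edgeR adjusted p = 0.474). Without the 7-day library of mouse 3 the difference was 0.92 and passed, with an edgeR adjusted p of 0.0043, in a range of 0.0043 to 0.826 over the alternatives. Ahnak, a scaffold that S100a10 and Anxa2 hold at the membrane, differed by 0.17 ± 0.19, Sugt1, a co-chaperone bound by S100a6, by 0.19 ± 0.20, and Myh9, the myosin bound by S100a4, by -0.22 ± 0.19, and none of these passed.

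A receptor list of 10 genes held receptors for secreted S100 proteins and proteins that act with them, such as Myd88 and Ly96. Of the 10, 9 were tested, 1 was higher and none was lower (11.1% past the threshold, beside 12% of all genes). The median difference was 0.10. Bsg (basigin), a receptor for S100a9, rose from 139, 103 and 119 CPM at day 5 to 276, 264 and 237 CPM at day 7, again with no overlap (1.11 ± 0.19, edgeR adjusted p = 0.000809). Nptn, Alcam and Mcam, also on the receptor list, had means of 275, 234 and 78.7 CPM at day 5. At day 7 their means were 319, 252 and 104 CPM, and none passed. Tlr4 and Ager, named above as receptors of calprotectin, were low. Tlr4 measured 2.45 to 4.02 CPM over all libraries (-0.20 ± 0.46, edgeR adjusted p = 0.835), and Ager had 11 counts at day 5 and 5 at day 7 (edgeR adjusted p = 0.432).

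Transcription factors of families known to act on S100 genes moved in both directions. All 23 were tested: 6 were higher, 1 was lower and 16 did not pass, with a median difference of 0.07. The share past the threshold was 30.4%, beside 12% of all genes, and nothing particular to the list is read from it. Jun, a subunit of AP-1, rose from 127, 92.4 and 115 CPM at day 5 to 606, 697 and 409 CPM at day 7 (2.36 ± 0.23, edgeR adjusted p = 2.33e-06). The AP-1 subunits Fosl2 (1.34 ± 0.26, edgeR adjusted p = 0.00237) and Jund (1.21 ± 0.25, edgeR adjusted p = 0.00308) were also higher. Fosl1, another AP-1 subunit, was lower, from 32.6, 19.6 and 21.6 CPM to 14.96, 11.1 and 4.90 CPM (-1.22 ± 0.34, edgeR adjusted p = 0.0237).

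The C/EBP factors are known to act on S100a8 and S100a9 in myeloid cells and keratinocytes. Cebpd measured 18.6, 6.03 and 12.2 CPM at day 5 and 49.5, 55.2 and 24.0 CPM at day 7 (1.79 ± 0.35, edgeR adjusted p = 0.00242). Cebpb measured 110, 95.9 and 99.4 CPM at day 5 and 158, 210 and 170 CPM at day 7 (0.82 ± 0.19, edgeR adjusted p = 0.00820). Both were above the 5-day range in each 7-day library. The seventh factor past the threshold, Junb, is named although it falls outside the rule for named genes: its difference was 1.06 ± 0.31, and its 7-day library of mouse 3 (98.4 CPM) lay below the 5-day range.

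Other EF-hand genes, outside the S100 family, were tested for 24 of 28 listed, and 4 were higher and 19 did not pass, with a median difference of 0.17, beside the same 12% and -0.01 for all genes. Calml3, a calmodulin-like protein of stratified epithelia, rose from 24.7, 38.7 and 31.3 CPM to 267, 409 and 232 CPM (3.27 ± 0.25, edgeR adjusted p = 1.73e-07). Calm4, a calmodulin-like gene of the epidermis, was also higher (0.99 ± 0.26, edgeR adjusted p = 0.0161). Rcn1 (0.86 ± 0.20, edgeR adjusted p = 0.00895), which binds calcium in the endoplasmic reticulum, and Chp1 (0.83 ± 0.21, edgeR adjusted p = 0.0146), which binds sodium-proton exchangers, were higher.

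**Figure D5:**
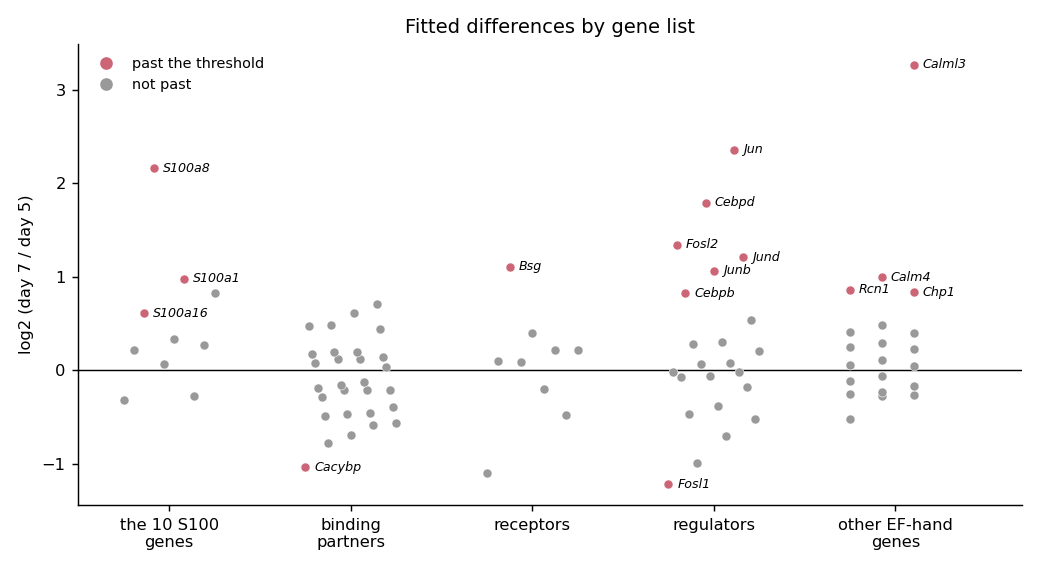
Fitted difference between day 7 and day 5 (log2) for the 10 S100 genes and for genes of 4 lists with more than 3 counts on each day. Red points are past the threshold and named, and grey points are not. The regulators include 6 higher genes and 1 lower gene, and the binding partners and receptors show Cacybp and Bsg.

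Similar patterns across the libraries were sought for the 9 members with a mean of at least 10 CPM, by Pearson correlation of log2 CPM with 8064 protein-coding genes. The 6 libraries share 3 mice and fall into 2 days, so the values describe these libraries only. The nearest genes were Zfp652 and Hcar2 for S100a8 (both r = 0.997), Ifrd1 and Cited2 for S100a9 (0.995 and 0.994), B3gnt8 and Ak3 for S100a16 (0.998 and 0.996) and Trim26 for S100a1 (0.992). For S100a6 they were Patj (0.982) and Phlda3 (0.981), for S100a11 Ankib1 and Lsm12 (both 0.994), for S100a14 Amotl2 (0.993) and Atp6v1b2 (0.991), for S100a10 Zc3hav1 (0.992) and Anxa5 (0.989), and for S100a4 Prr12 (0.961) and Axl (0.959). With so few libraries, 23 (S100a4) to 605 (S100a16) genes had r over 0.9. Within the family, S100a9 was nearest to S100a14 (r = 0.914) and S100a6 to S100a1 (0.936), and S100a8 and S100a9 had an r of 0.665.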

How the data were processed

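RNA of mSGOs was measured in 6 libraries from 3 mice, on day 5 and day 7. Per the labels, polyA RNA was prepared with the Lexogen QuantSeq 3′ kit, and the authors aligned reads to GRCm39. The deposited values are raw read counts, 1 for each Ensembl ID in a library. The aligner, annotation and strand setting are not given in the sources used here. The 5 closing lines of each file, which name no gene (9.12% to 14.4% of reads), were left out. Names and positions came from GENCODE vM39 (43465 of 47643 IDs matched). The 10 members and all gene lists were chosen with earlier results of these data known.

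The 15792 genes seen in 2 or more libraries (minimum 1 count) were fitted in edgeR 4.0.16 (R 4.3.3; TMM, glmQLFit and glmQLFTest, two-sided, day as the only term), with Benjamini-Hochberg adjustment over all of them. A gene past the threshold had an adjusted p below 0.05 and a log2 difference of more than 0.6 in size. SE is the log2 difference divided by the square root of F. The mouse number in the labels pairs the libraries, since each mouse gave both days, and the main fit does not use it. Deviations from the day means correlated weakly and with both signs within a mouse. The values were 0.137, -0.100 and 0.162 for mouse 1, mouse 2 and mouse 3 over 8172 genes. The script was tested on simulated data. Named genes were all members, every other S100 or S100-fused gene with a count, 9 partners and receptors fixed by name, up to 6 genes past the threshold per list by smallest p, and the 2 most correlated genes per member, with log2 CPM at a prior count of 2. Alternatives were other scaling factors and filters, DESeq2 1.42.0, a robust fit, a replicate block, thinned counts and leaving out each library. Promoter sequences came from RefSeq. Some genes that the rule names are not reported here.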

Additional observations from a re-analysis of the deposited data

How the results depend on the processing

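Over 15 alternatives, S100a8, Cacybp, Bsg, Jun, Fosl2, Cebpd, Jund and Calml3 were past the threshold in each, and no gene past the threshold changed direction. Anxa1, not past it, ranged from -0.15 to 0.92 over the alternatives. The number of S100 members past the threshold, 3, was 1 with library totals only and 4 without a filter. It was 2 with upper quartile scaling, with filterByExpr, in thinned counts and with the replicate block. The partners, 2, were 1 with filterByExpr and 1 in thinned counts. The neighbours, 1, were 2 with library totals only, without a filter and with the replicate block, each time with S100a2 added. The replicate block, the paired fit, also took S100a16 (0.603) off the list, through its adjusted p, and changed the call of no other member. Of the genes named from the partner, receptor, regulator and EF-hand lists, it changed the call of none. Leaving out 1 library gave 797 to 2576 genes in all (main 1901), 1 to 4 members, 1 to 7 partners, 1 to 2 receptors, 4 to 10 regulators (main 7), 1 to 6 other EF-hand genes (main 5) and 1 neighbour. The low ends came without a 5-day library or without the 7-day library of mouse 2, and the 7 partners without the 7-day library of mouse 3. A day with 2 libraries borrows its spread from both days. Without the ID with the highest count, the members held 1.04% of gene counts at day 5 and 1.19% at day 7. Cebpb, Fosl1, Calm4, Rcn1, Chp1 and Plat each lost the threshold in 2 to 4 alternatives, and Junb in 7. The planned comparison of protein identity was not run. Counts of 10 to 21 limit S100a3, and S100b, S100g and S100z could not be compared at this depth.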
